A study of Homo sapiens with 8 samples.

Results

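The 10 genes described here, DUSP4, DUSP5, DUSP6, SPRY1, SPRY2, SPRY4, SPRED1, SPRED2, ETV4 and ETV5, are transcribed when the RAS to ERK branch of the MAPK pathway is active. They were chosen by symbol, with earlier results of these data known. All 10 of them were found among 26475 genes in the count table and among the 14008 genes with enough counts to test. RNA came from BT474 cells, an established human line of breast carcinoma that carries extra copies of ERBB2 and expresses the estrogen receptor. The labels give 4 samples as NPY1R high and 4 as NPY1R low, where NPY1R encodes the neuropeptide Y receptor Y1, a G protein-coupled receptor. By its title the series concerns cells that persist under lapatinib, which blocks the EGFR and ERBB2 kinases, but the labels of these 8 samples name no drug, no further allele and no time point, and do not say how high and low cells were obtained or whether each sample was a separate culture. The p-values below therefore set the group difference against the spread between these samples, which may be technical.

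In this pathway, growth factor receptors load RAS with GTP, RAS recruits RAF kinases, RAF activates MEK, and MEK activates ERK. ERK then raises transcription of its own brakes: dual-specificity phosphatases (DUSP) that remove phosphate from MAP kinases, and the Sprouty (SPRY) and SPRED proteins, which act on RAS and RAF. It also raises ETV4 and ETV5, transcription factors of the PEA3 group of ETS proteins, in part by relieving repression by the protein CIC. Levels of these transcripts are widely used as a readout of ERK signalling, in ERBB2-amplified breast cancer cells as elsewhere, although the counts here measure RNA and not kinase activity.

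Total counts ranged from 18025648 to 30609791 per library. NPY1R itself followed the labels, at 699.2 to 1049 counts per 1000000 (CPM) in the NPY1R high libraries against 90.8 to 103.7 CPM in the others. All 8 luminal epithelial markers were expressed, with a summed level of 7181 to 8262 CPM in NPY1R high and 7025 to 9277 CPM in NPY1R low. Of these 8, ESR1 (log2 fold change 0.59, edgeR adjusted p 7.23e-05) and GATA3 (0.60, 0.00616) were higher in NPY1R high and EPCAM (-0.30, 0.00436) was lower. Summed markers of other cell types were low in both groups. They were 4.91 to 8.81 and 4.52 to 7.78 CPM for 4 basal genes (KRT14 at 0), 10.9 to 17.5 and 10.4 to 17.5 CPM for 5 fibroblast genes (COL1A2, DCN and PDGFRB at 0), 0.551 to 1.19 and 0.549 to 0.738 CPM for 4 blood genes (CD3E at 0), and 9.22 to 15.5 and 13.5 to 18.2 CPM for 3 endothelial genes, in NPY1R high and low respectively.

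The promoters of the Sprouty relatives SPRY1 and SPRY2 are shown first because, of these close relatives, SPRY1 was lower in NPY1R high and SPRY2 did not pass the test. Each sequence is the 250 bases before the furthest upstream start listed for the gene in RefSeq (build GRCh38.p14), 5′ to 3′ on the strand of the gene. SPRY1 lies on chromosome 4, plus strand, window chr4:123396545-123396794, and SPRY2 on chromosome 13, minus strand, window chr13:80341127-80341376. Capitals mark a match to CCGGAA, the GGAA core of ETS factor sites with CC before it, the kind of site that ETV4 and ETV5 recognise. GGAA without CC before it also occurs in the SPRY1 window and is not marked. Whether the marked match bears on the level of either gene was not tested.
SPRY1: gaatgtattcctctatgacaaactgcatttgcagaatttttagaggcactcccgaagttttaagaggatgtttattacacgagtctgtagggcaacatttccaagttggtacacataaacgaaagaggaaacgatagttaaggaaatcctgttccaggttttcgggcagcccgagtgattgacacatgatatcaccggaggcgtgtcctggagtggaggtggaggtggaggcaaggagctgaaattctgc
SPRY2: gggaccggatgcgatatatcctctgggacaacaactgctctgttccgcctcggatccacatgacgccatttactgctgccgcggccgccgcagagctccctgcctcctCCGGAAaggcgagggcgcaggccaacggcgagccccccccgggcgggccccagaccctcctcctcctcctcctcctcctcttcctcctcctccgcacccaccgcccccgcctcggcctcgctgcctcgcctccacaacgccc

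RefSeq windows were matched for 6 of the 10 genes, namely DUSP6, SPRY1, SPRY2, SPRY4, SPRED1 and SPRED2, and not for DUSP4, DUSP5, ETV4 and ETV5. The SPRY4 window, chr5:142324248-142324497, lies inside the RefSeq gene (chr5:142310430-142325021, minus strand) and not before its outermost start. The sequence before that outermost start was not searched. Annotated exon covered all 250 bases of the DUSP6 and SPRED1 windows, 170 of SPRY4, 38 of SPRED2 and 0 of SPRY1 and SPRY2. A match in such bases may lie in transcribed sequence and not upstream of it. The windows were searched on both strands, with overlaps allowed, for the CIC octamer (TGAATGAA, TGAATGGA, TCAATGAA or TCAATGGA). Also searched for were the ETS core with CC before it (CCGGAA), the AP-1 site (TGANTCA), the cAMP response element (TGACGTCA) and the CArG box of SRF. The CIC octamer was found in DUSP6 alone of the 6, and in 3.33% of 27305 promoter windows of the same length. CCGGAA was found in SPRY2 alone of the 6, and in 14.8% of all windows. None of the 6 held an AP-1 site (6.57% of all windows), a cAMP response element (1.75%) or a CArG box (1.15%). In DUSP6, on the minus strand of chromosome 12, the octamer was read on the opposite strand, 24 bases before the RefSeq start. This match lay in annotated exon, as did the whole DUSP6 window. A further copy began at base 2 of the RefSeq transcript, outside the window searched. The 30 bases around each are printed because CIC is the repressor at the end of this pathway, with the octamer in capitals, at chr12:89352507-89352536 and chr12:89352482-89352511 in that order.
DUSP6 upstream copy: cggagaatgtaTCCATTGAgacgctcgctg
DUSP6 downstream copy: cgctgtttgtaTCCATTGAggagctgcctc
These are matches of letters, and binding was not measured.

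Of the 10 genes, 9 were lower in NPY1R high at an adjusted p under 0.05, and the remaining gene, SPRY2, did not pass. Across all tested genes 13.6% passed in either direction and 7.81% passed as lower, by edgeR's quasi-likelihood test with Benjamini-Hochberg adjustment. The 10 genes were chosen with earlier results of these data known, so setting their count beside these shares is not a test. The split of all calls by direction depended on the scaling: 810 genes were higher and 1094 lower as reported here, but 1009 and 783 with upper-quartile factors and 949 and 807 with library totals. The 9 calls were made under both of these scalings. The falls ranged from a log2 fold change of -0.36 for SPRED2 to -2.26 for ETV4. The median over the 10 genes was -0.68, where that over all tested genes was -0.03. The values of the groups did not overlap for the same 9 genes, against 20.2% of all tested genes in either direction and 11.4% with lower values in NPY1R high. In bulk RNA, fewer cells that express a gene and less RNA per cell cannot be told apart.

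**Figure D1:**
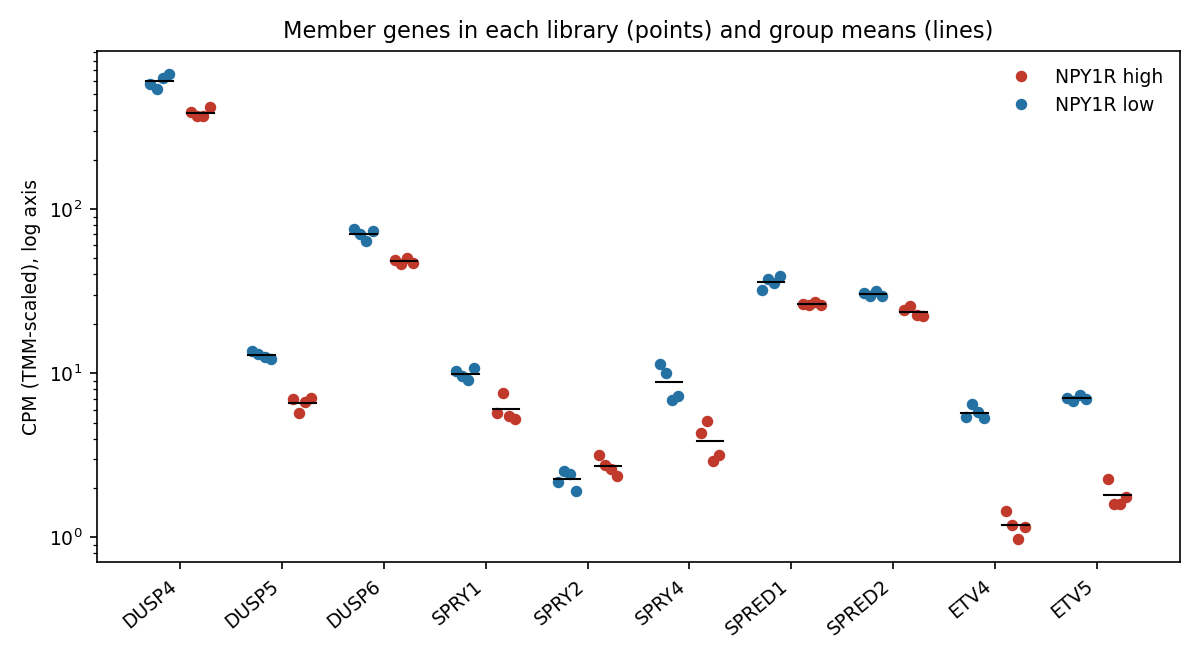
Expression of the 10 genes in CPM on a log axis, with 1 point per library (4 NPY1R high in red, 4 NPY1R low in blue) and a line at each group mean. For 9 genes every NPY1R high point lies below every NPY1R low point, and SPRY2 is the exception.

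The transcription factors ETV4 and ETV5 differed most. ETV4 was at 1.44, 1.19, 0.977 and 1.16 CPM in NPY1R high replicates 1 to 4 and at 5.44, 6.48, 5.77 and 5.30 CPM in NPY1R low replicates 1 to 4, from 21 to 42 and 126 to 185 counts. Every NPY1R low library exceeded the highest NPY1R high library by more than the range within either group. The log2 fold change of ETV4 was -2.26 (SE 0.16), a level 4.80-fold higher in NPY1R low, and edgeR's quasi-likelihood test gave an adjusted p of 1.78e-05. ETV5 was at 2.27, 1.60, 1.59 and 1.76 CPM in NPY1R high and at 7.05, 6.72, 7.37 and 6.95 CPM in NPY1R low. Replicate 1 was the highest of the NPY1R high libraries and still lay well under the NPY1R low ones. ETV5 was 3.87-fold higher in NPY1R low, a log2 fold change of -1.95 (SE 0.15, edgeR adjusted p 2.34e-05). By p-value ETV4 ranked 53 and ETV5 ranked 70 among the 14008 tested genes. ETV4 overlaps the helicase gene DHX8 in RefSeq, and how shared reads were divided is not given in the sources used here. DHX8 had 1292 to 2223 counts and a log2 fold change of -0.07 (edgeR adjusted p 0.430). In RefSeq, DUSP6 also overlaps POC1B-DUSP6, ETV5 overlaps ETV5-AS1 and LOC124909470, and SPRY4 overlaps SPRY4-IT1. Of these only SPRY4-IT1 was in the count table, at 0 to 3 counts.

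ETV1, the other member of the PEA3 group, had few counts, 5 to 8 in NPY1R high and 13 to 16 in NPY1R low. Its log2 fold change was -1.15 (SE 0.31) with an edgeR quasi-likelihood adjusted p of 0.0332. The groups did not overlap, but every fit with a library removed lost this call, except that without NPY1R low replicate 2 (edgeR adjusted p up to 0.105), as did DESeq2 (adjusted p 0.131) and the fit with no filter on low counts (edgeR adjusted p 0.0902).

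Among the phosphatases, DUSP4 and DUSP5 act in the nucleus and DUSP6 in the cytoplasm, and DUSP5 and DUSP6 are selective for ERK. DUSP4 had the most counts of the 10 genes, at 389.5, 367.4, 367.6 and 420.9 CPM in NPY1R high and 576.9, 536.9, 627.6 and 664.6 CPM in NPY1R low. It was lower in every NPY1R high library, with a log2 fold change of -0.64 (SE 0.08) and an edgeR quasi-likelihood adjusted p of 0.000418. DUSP6 was at 48.7, 46.2, 50.4 and 46.7 CPM in NPY1R high and at 75.3, 70.4, 63.7 and 73.4 CPM in NPY1R low. The libraries within each group lay close together, and the log2 fold change of DUSP6 was -0.56 (SE 0.07, edgeR adjusted p 0.000409). DUSP5 was at 6.94, 5.69, 6.69 and 7.10 CPM in NPY1R high and 13.7, 13.1, 12.6 and 12.3 CPM in NPY1R low. Its level was 1.96-fold higher in NPY1R low, a log2 fold change of -0.97 (SE 0.10, edgeR adjusted p 0.000222). Whether the size of the fall differed between the 3 phosphatases was not tested.

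The Sprouty genes, whose products restrain receptor tyrosine kinase signalling upstream of ERK, were called in 2 of 3 cases: SPRY1 and SPRY4 fell, and SPRY2 did not pass the test. The difference between these genes was not itself tested. SPRY4 was at 4.33, 5.09, 2.93 and 3.19 CPM in NPY1R high and at 11.4, 10.1, 6.86 and 7.23 CPM in NPY1R low. Replicates 1 and 2 exceeded replicates 3 and 4 in both groups, and within each of these subsets the groups were nearly the same distance apart (log2 differences of -1.17 and -1.18). Over all libraries SPRY4 was 2.28-fold higher in NPY1R low, a log2 fold change of -1.19 (SE 0.22) with an edgeR quasi-likelihood adjusted p of 0.0060. SPRY1 was at 5.70, 7.59, 5.46 and 5.29 CPM in NPY1R high and 10.3, 9.60, 9.11 and 10.7 CPM in NPY1R low. Replicate 2 was the highest of the NPY1R high libraries and came nearest to the NPY1R low ones. Over all libraries SPRY1 had a log2 fold change of -0.72 (SE 0.14, edgeR adjusted p 0.00593).

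SPRY2, the only one of the 10 with a positive log2 fold change, was at 3.19, 2.75, 2.61 and 2.37 CPM in NPY1R high and 2.18, 2.52, 2.43 and 1.92 CPM in NPY1R low, from 43 to 93 and 49 to 72 counts. The groups overlapped. SPRY2 had a log2 fold change of 0.28 (SE 0.16) with a 95% interval of -0.08 to 0.63 and an edgeR quasi-likelihood adjusted p of 0.320. That interval holds none of the falls measured for the other 9 genes, the smallest of which was -0.36 for SPRED2. Within libraries, the count of SPRY2 relative to SPRY1 was 0.363 to 0.560 in NPY1R high and 0.180 to 0.266 in NPY1R low, and relative to SPRY4 it was 0.540 to 0.889 and 0.192 to 0.353. Neither ratio overlapped between the groups. SPRY1 and SPRY4 were already without overlap and SPRY2 leaned the other way, so this is not separate evidence. The ratios were chosen after the values were seen and were not tested.

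**Figure D2:**
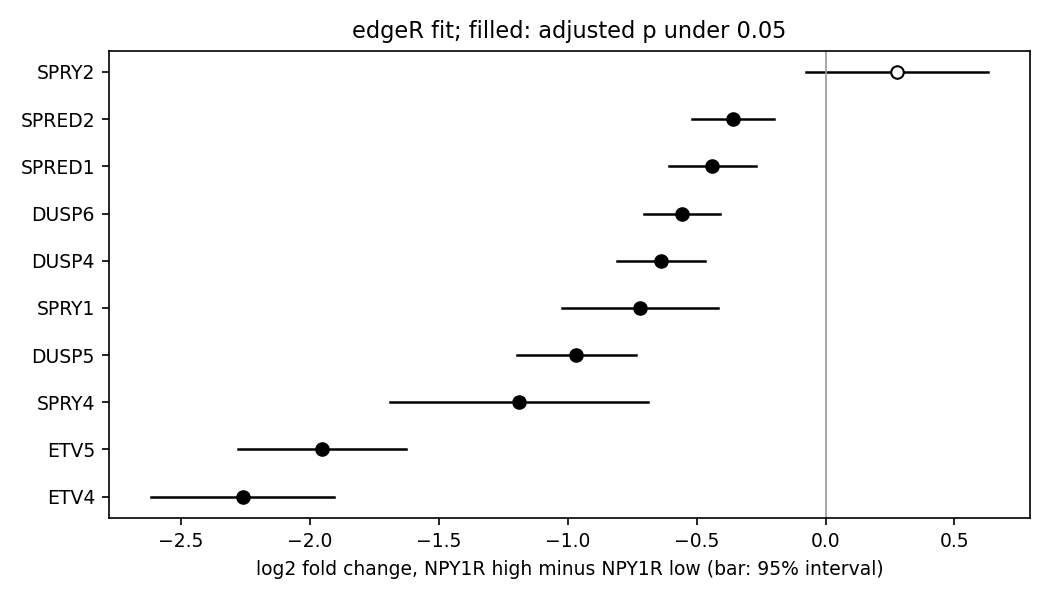
The log2 fold change of each gene, NPY1R high minus NPY1R low, with its 95% interval from the edgeR fit over 4 against 4 libraries. Filled points have an adjusted p under 0.05. ETV4 and ETV5 stand at the low end, at -2.26 and -1.95, and the interval of SPRY2 includes 0.

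The SPRED proteins bring neurofibromin, a GTPase-activating protein that switches RAS off, to the membrane. Their genes had the smallest falls. SPRED1 was at 26.6, 26.1, 27.2 and 25.9 CPM in NPY1R high and at 31.9, 37.5, 35.2 and 38.9 CPM in NPY1R low. The NPY1R high libraries were nearly level, the highest being 1.05 times the lowest, and all lay below NPY1R low replicate 1, the lowest of its group. SPRED1 had a log2 fold change of -0.44 (SE 0.08, edgeR adjusted p 0.00356). SPRED2 was at 24.2, 25.5, 22.8 and 22.4 CPM in NPY1R high and at 30.8, 29.6, 31.8 and 29.4 CPM in NPY1R low, also without overlap. Its log2 fold change was -0.36 (SE 0.07, edgeR adjusted p 0.00779), and without NPY1R high replicate 4 the adjusted p was 0.0514 (log2 fold change -0.29).

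Levels of different genes can be set side by side only per length, for which CPM was divided by the length in kb of the longest coding transcript of each gene in GENCODE release 29. On this scale of CPM per kb, DUSP4 stood first, at 69.8 in NPY1R high and 108.6 in NPY1R low, and DUSP6 second, at 10.9 and 16.1. SPRED2 (5.78 and 7.43), SPRED1 (3.40 and 4.61), DUSP5 (2.58 and 5.05) and SPRY1 (2.30 and 3.80) formed a middle range, in which DUSP5 lay below SPRED1 in NPY1R high and above it in NPY1R low. ETV4 (0.491 and 2.37), SPRY4 (0.787 and 1.80), ETV5 (0.439 and 1.71) and SPRY2 (1.01 and 0.836) were the lowest in NPY1R low. In NPY1R high, SPRY2 ranked above SPRY4, ETV4 and ETV5, while in NPY1R low it ranked last. The smallest differences on this scale rest on a choice of transcript, and their order was not tested.

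DUSP4 supplied 75.1% to 78.4% of the counts of all 10 genes in NPY1R high libraries and 74.3% to 78.2% in NPY1R low. The summed level of the 10 genes was 506.8 ± 23.0 in NPY1R high against 785.2 ± 54.4 CPM in the NPY1R low libraries (SD, n = 4 each), so this sum mostly reports DUSP4. The other 9 genes together were at 120.4 ± 3.22 and 183.7 ± 5.95 CPM (SD, n = 4 each). ETV4 and ETV5 together were at 3.00 ± 0.497 and 12.8 ± 0.472 CPM (SD, n = 4 each), 0.526% to 0.723% of the counts of the 10 genes in NPY1R high and 1.44% to 1.83% in NPY1R low.

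The libraries did not order the genes alike. Within its group, NPY1R high replicate 4 had the lowest value for 4 genes and the highest for 2, DUSP4 and DUSP5. NPY1R low replicate 4 had the lowest value for 4 genes and the highest for 3. No library was the lowest of its group for more than 4 of the 10 genes. Between replicates 1 and 2 alone, the log2 difference was -2.12 for ETV4, -1.81 for ETV5, -1.08 for DUSP5 and -0.56 for DUSP4. Between replicates 3 and 4 alone it was -2.30, -2.05, -0.84 and -0.72 for the same genes. These subsets are not a labelled batch, and the split shows in the same values that are tested here. A p-value from a fit with a term for them is therefore not independent support. Deviations from the group means, over all tested genes, were correlated between each high and each low library. In the 8 pairs from the same subset the correlations were 0.0178 to 0.501. In the 8 pairs from different subsets they were -0.475 to -0.0773. Deviations from a group mean cancel out within the group, so the negative values partly follow from the positive ones. The 9 genes were lower in both subsets.

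**Figure D3:**
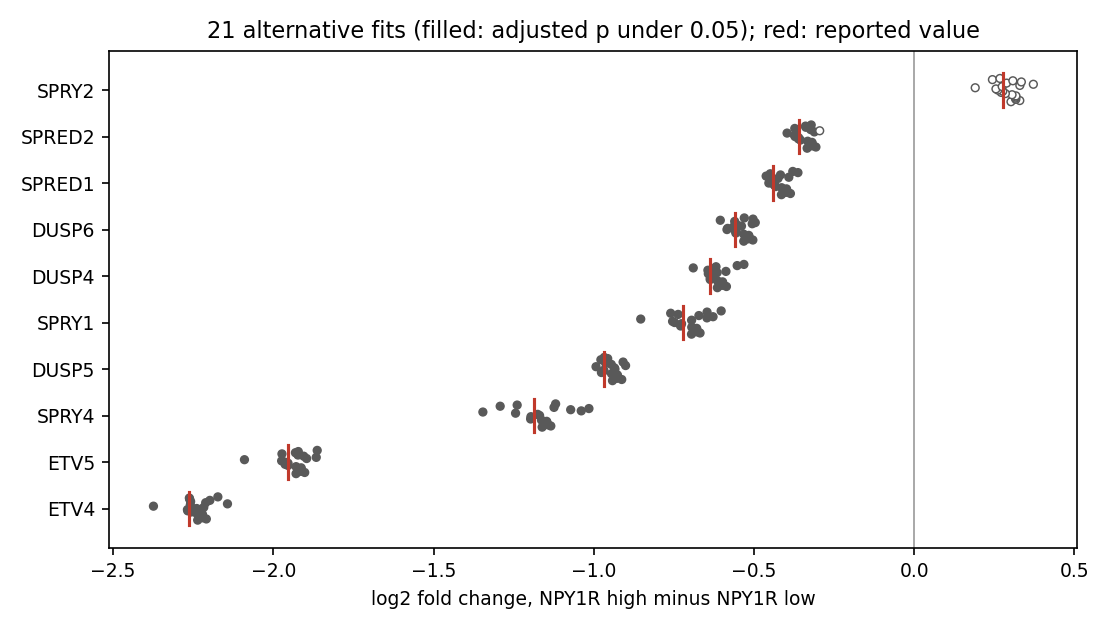
The log2 fold change of each gene in 21 alternative fits (points, filled where the adjusted p was under 0.05) and in the reported fit (red line). All points of 9 genes lie below 0, and those of SPRY2 lie between 0.19 and 0.37 with none filled. The open point among the 9 is SPRED2 without NPY1R high replicate 4.

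Other genes of the pathway were read from 6 lists, 88 genes of which 83 were tested. The lists were chosen by role, also with earlier results of these data known. At an edgeR adjusted p under 0.05, 7 rose and 9 fell in NPY1R high, or 19.3% together. Among all tested genes 5.78% were higher and 7.81% lower, or 13.6% together. The 83 pathway genes had a median log2 fold change of 0.01.

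Of 6 tested phosphatases related to the DUSP genes above, 1 was lower and 0 higher. DUSP10, which acts mainly on p38 and JNK, had a log2 fold change of -0.40 (edgeR adjusted p 0.0218), a call lost without NPY1R high replicate 2, 3 or 4 or NPY1R low replicate 1 or 2 (edgeR adjusted p up to 0.0924). DUSP2, a nuclear phosphatase of ERK and p38 named after its values were seen, had the opposite sign without passing. It was at 8.45, 8.14, 3.04 and 3.19 CPM in NPY1R high and at 2.38, 3.85, 1.33 and 0.668 CPM in NPY1R low. The groups overlapped over all libraries but not within replicates 1 and 2 or within replicates 3 and 4. Its log2 fold change was 1.46 with an edgeR quasi-likelihood adjusted p of 0.0934. That adjusted p was 0.0130 with the GC offset and 0.0384 without NPY1R low replicate 2. With a term for the 2 subsets it was 0.000475, but no label gives that split and the DUSP2 values themselves show it.

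Of 14 tested brakes on RAS and its receptors, 1 was lower and 0 higher. SPRED3, the relative of SPRED1 and SPRED2, had a log2 fold change of -0.67 (SE 0.17) and an edgeR quasi-likelihood adjusted p of 0.0294, from 35 to 48 counts in NPY1R high and 54 to 76 in NPY1R low. Of the 8 fits with a library removed, those without replicate 4 of either group kept this call and the other 6 lost it (edgeR adjusted p up to 0.100). With no filter on low counts the call was also lost (edgeR adjusted p 0.0598).

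The core of the cascade, from receptor adaptors to ERK, had 2 genes higher and 2 lower of 25 tested, with a median log2 fold change of -0.03. RASGRP1, an exchange factor that loads RAS with GTP, had the largest difference. It was at 6.97, 8.63, 9.19 and 6.50 CPM in NPY1R high and at 2.35, 2.38, 3.11 and 1.89 CPM in NPY1R low, a log2 fold change of 1.69 (SE 0.18, edgeR adjusted p 0.000217). FRS2, a docking protein of FGF and neurotrophin receptors, had a log2 fold change of 0.33 (edgeR adjusted p 0.00244). BRAF, a kinase that activates MEK, had -0.32 (edgeR adjusted p 0.0145), lost without replicate 3 or 4 of either group (edgeR adjusted p up to 0.0835) and with no filter on low counts (0.0519). GRB2, the adaptor that brings SOS to receptors, had -0.18 (edgeR adjusted p 0.0428), a call that was lost with each of 3 other scalings, each of 3 other filters, DESeq2 (adjusted p 0.0601) and in all 8 fits with a library removed (edgeR adjusted p up to 0.244). MAPK3, which encodes the kinase ERK1 and was named after its values were seen, had a log2 fold change of -0.28 and did not pass (edgeR adjusted p 0.225). It passed with the GC offset (edgeR adjusted p 0.0195), with a term for the 2 subsets (0.0369) and without NPY1R low replicate 4 (edgeR adjusted p 0.0394).

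Of 18 tested effector kinases and transcription factors of ERK, 1 was higher and 3 lower, ETV1 among them. RPS6KA3, which encodes the ERK-activated kinase RSK2, was at 175.6, 166.7, 237.4 and 240.7 CPM in NPY1R high and at 98.9, 96.5, 131.1 and 136.4 CPM in NPY1R low. Its log2 fold change was 0.83 (SE 0.16, edgeR adjusted p 0.00607). RPS6KA5, which encodes MSK1, a nuclear kinase activated by ERK and p38, had a log2 fold change of -0.59 (SE 0.08, edgeR adjusted p 0.000632). ATXN1, whose product binds CIC, had -0.49 (edgeR adjusted p 0.0151), lost without NPY1R high replicate 3 (0.0512) or NPY1R low replicate 3 (0.0507). CIC, named after its values were seen, had -0.07 (edgeR adjusted p 0.921), a sign that turned without NPY1R high replicate 3 or NPY1R low replicate 1 or 2 (0.14, 0.07 and 0.02).

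A further list held 10 other genes that ERK raises in many cells, 9 of them tested. Here 4 rose in NPY1R high, 0 fell, and the median log2 fold change was 0.45. EPHA4, an ephrin receptor, was at 47.1, 47.8, 53.4 and 53.1 CPM in NPY1R high and 24.0, 26.8, 21.2 and 23.8 CPM in NPY1R low, a log2 fold change of 1.07 (SE 0.09, edgeR adjusted p 3.52e-05). FOS, an immediate early transcription factor, was at 36.0, 38.2, 38.7 and 37.2 CPM in NPY1R high and 17.9, 22.7, 19.7 and 17.4 CPM in NPY1R low. Its groups did not overlap, and its log2 fold change was 0.95 (SE 0.09, edgeR adjusted p 0.000114). EGR1, another immediate early factor, was at 39.7, 30.3, 42.7 and 50.5 CPM in NPY1R high and 17.9, 16.1, 30.9 and 25.5 CPM in NPY1R low. Its groups overlapped and its log2 fold change was 0.85 (SE 0.22, edgeR adjusted p 0.0259), lost without NPY1R high replicate 1, 3 or 4 or NPY1R low replicate 1 or 2 (edgeR adjusted p up to 0.0746). MYC, a transcription factor that drives cell growth, had a log2 fold change of 0.56 (SE 0.07, edgeR adjusted p 0.000797). PHLDA1 (0.45, edgeR adjusted p 0.0849) and CCND1, the gene for cyclin D1 (0.07, edgeR adjusted p 0.571), were named after their values were seen and did not pass, although PHLDA1 passed with a term for the 2 subsets (edgeR adjusted p 0.0295).

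In the p38 and JNK arms of the MAPK family, 0 of 11 tested genes were higher and 2 lower. MAPK9, which encodes JNK2, had a log2 fold change of -0.45 (SE 0.05, edgeR adjusted p 0.000323). MAP2K4, which activates JNK, had -0.28 (edgeR adjusted p 0.0289), a call that was lost with each of 3 other scalings and each of 3 other filters, and in each fit with a library removed but that without NPY1R low replicate 2 (edgeR adjusted p up to 0.132).

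**Figure D4:**
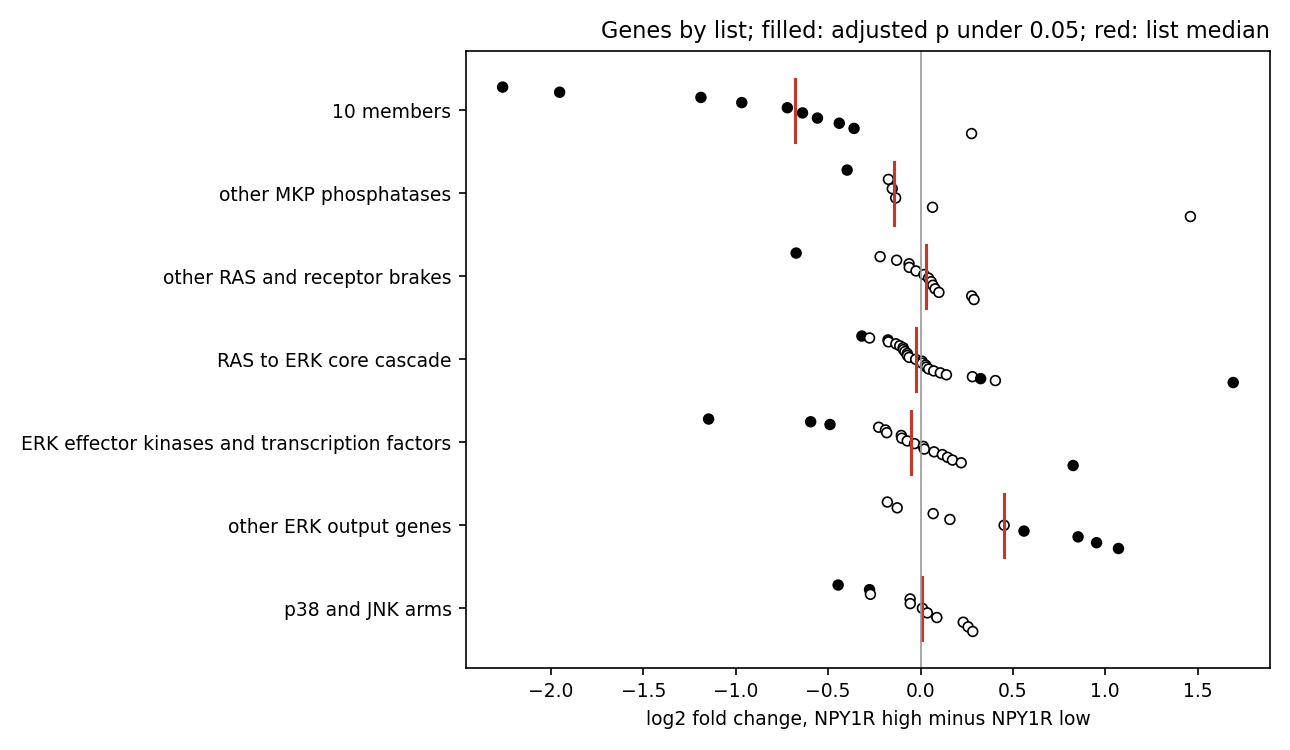
The log2 fold change, NPY1R high minus NPY1R low, of each tested gene in the 10-gene group and in the 6 pathway lists, filled where the edgeR adjusted p was under 0.05, with each median in red. The 10 genes have a median of -0.68, the other ERK output genes one of 0.45, and the core cascade one of -0.03.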

How the data were processed

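RNA was sequenced from 8 BT474 samples, 4 NPY1R high and 4 NPY1R low. Per the labels' protocols, 200 ng of RNA from plated, sub-confluent cells went into a stranded library kit. The authors deposited expected counts for each gene symbol, with no scaling across libraries. The submitters' processing notes name STAR 2.5.2, RSEM 1.3.0 and hg38, and the annotation and strand setting are not given in the sources used here. The series table was used, and the tables of single samples differed from it in 0 values. Expected counts were rounded to whole numbers, because the test needs them. The 12 pairs of libraries within groups differed by 6.00 to 66.4 chi-square per degree of freedom, beyond counting noise, so none was taken as a library deposited again.

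Genes were filtered with filterByExpr (minimum count 10), scaled by TMM and tested over the whole table with edgeR 4.0.16 in R 4.3.3, with Benjamini-Hochberg adjustment at 0.05. SE is the log2 fold change over the root of F. CPM is scaled by TMM, and log2 differences within subsets used a prior count of 2. DESeq2 1.42.0, limma 3.58.1, scalings, filters, a replicate block, a GC offset (spline with 5 degrees of freedom on transcript GC from GENCODE 29, for 94.1% of tested genes) and left-out libraries were alternatives. The procedure was tested on simulated data. Promoters and overlaps came from RefSeq on GRCh38.p14.

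Named genes were NPY1R, the 10 members, and from each pathway list the genes past the threshold, at most 5 by size of change. Others are said to be named after their values were seen, and some genes of the lists are not reported here. Members and lists were chosen with earlier results of these data known. Reads without molecular identifiers are not independent molecules.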

Additional observations from a re-analysis of the deposited data

Results flagged for a closer look

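In 2 of 64 group values, a library's gap to its nearest neighbour was too large a share of the group's range by Dixon's test at the 95% level. Chance alone gives 3.2 of 64. Neither was a value of the 10 members. RPS6KA5 was at 21.9 CPM in NPY1R high replicate 4, where the others were at 25.1 to 25.8. CIC was at 6.76 CPM in NPY1R low replicate 4, where the others were at 15.9 to 17.6.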

How the results depend on the processing

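Over 22 alternatives, 219 of 220 values of the 10 members had the same sign and the same side of the threshold as reported, the exception being SPRED2 without NPY1R high replicate 4. Members called numbered 9 in each alternative but that one (8), also without both NPY1R high replicate 3 and NPY1R low replicate 4. Of 790 values of all 36 results, 684 stayed as reported, 84 lost the threshold or shrank, 19 gained it or grew and 3 changed sign. Over the alternatives ETV4 ranged from -2.37 to -2.14 and ETV5 from -2.09 to -1.86. The 1904 calls over all genes (810 higher, 1094 lower) became 1032 (470 and 562) at an adjusted p under 0.01, 2886 (1681 lower) when replicates 1 and 2 were set against 3 and 4 in the model, and 2961 (1807 lower) with the GC offset. Without each library in turn they ranged from 1351 to 2132, those higher from 624 to 1068, and those lower from 625 (without NPY1R high replicate 4) to 1064. The calls rose above 1904 in 1 of these 8 fits, that without NPY1R low replicate 4. The cause of these changes was not tested. More genes were higher than lower with upper-quartile factors (1009 and 783), library totals (949 and 807), no filter (909 and 800), 1 CPM in 4 libraries (965 and 837) and 10 counts in every library (923 and 812). Without both NPY1R high replicate 3 and NPY1R low replicate 4, SPRED3, BRAF, GRB2, ETV1 and MAP2K4 missed the threshold (adjusted p 0.0576 to 0.0921) and DUSP2 passed (0.0389). CIC, which did not pass, ranged from -0.27 to 0.14 across the same 8 fits, with reversed signs at 0.14, 0.07 and 0.02.

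Same-numbered libraries correlated at 0.339, 0.157, 0.0907 and 0.0178 in their deviations from group means. These values do not exclude pairing. The numbers were not taken as pairs because the labels do not say that they pair libraries. The replicate block gave 1833 calls (805 higher, 1028 lower), and 9 members called. With the block SPRED3 (adjusted p 0.0676), GRB2 (0.0671) and ETV1 (0.0589) missed the threshold and DUSP2 passed (0.00248). With the GC offset and the replicate block there were 3323 calls (1328 higher, 1995 lower). A library correlated best with its own number in 1 of 4 cases.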
